A study of Mus musculus with 12 samples.

Results

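CD4 single-positive (CD4SP) thymocytes were compared with the double-positive (DP) thymocytes that precede them, using the 6 arrays titled for these subsets of the 12 arrays of the series, 3 per group. Both groups were sorted by flow cytometry from C57BL/6 mice, DP cells as CD4+CD8a+ and CD4SP cells as CD4+CD8a- with high TCRb. The other 6 arrays held CD8SP cells (CD4-CD8a+, high TCRb) and DN cells (CD4-CD8a-TCRb-). Total RNA of all groups was taken in Trizol without culture or treatment, and no transgene or deletion is named. Values are on a log scale, read as log2, set against the DP mean, for 18193 genes, and each gene is the mean of its probe sets with 1 symbol. A difference is given as CD4SP minus DP ± the standard error of the limma fit. A gene was called at a Benjamini-Hochberg adjusted p under 0.05 over all genes, and "rose" and "fell" refer to CD4SP relative to DP in called genes. Whether replicates came from separate mice is not in the labels, and p-values then reflect only array-to-array spread, which may be technical, and the number of arrays limits the precision.

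DP thymocytes carry a newly assembled T cell receptor, and most of them die unless the receptor engages self-peptide on MHC molecules. The cells that pass this test and are matched to MHC class II lose CD8, move from the cortex to the medulla, and mature there as CD4SP cells before they leave for the periphery. The youngest DP cells are large and cycling, and most of the others are small and at rest. Beyond the well-known change of surface markers, receptors for medullary cytokines, adhesion, nutrient use and protein synthesis are known to be remodelled over this step.

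The sorted surface markers and the markers of other cells were examined first. Cd8a fell by 6.53 ± 0.38 (adjusted p = 3.45e-07) and Cd8b1 fell by 5.43 ± 0.29 (adjusted p = 2.12e-07) in CD4SP. Cd4 lay at -0.76, -0.65 and -0.52 on the CD4SP arrays and at -0.16, 0.0 and 0.16 on the DP arrays, and the difference was not called (-0.64 ± 0.50, adjusted p = 0.374). The arrays did not overlap, and with only the 6 compared arrays, without the CD8SP arrays (SD 0.45 for Cd4) and the DN arrays (SD 1.31), against 0.12 in CD4SP and 0.16 in DP, the same difference was called (adjusted p = 0.00534). All 7 measured DP markers fell, from -9.24 ± 0.12 for Rag1 to -3.46 ± 0.14 for Ptcra. This list includes Cd8a and Cd8b1, whose falls the sort sets in advance. The array medians over all probe sets ranged from -0.10 to 0.05 over the 12 arrays. CD8SP replicate 1 and DN replicate 1 had the lowest array weights (0.28 and 0.53) and enter this comparison only through the shared estimate of the spread. Without them 6749 genes were called in place of 5942. Quantile normalization, which widens the DP arrays because the values were centred on DP, left 3114 called, and the calls that it alone ends are given in the closing section.

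In CD4SP 2992 genes were higher and 2950 lower than in DP, which is 16.4% and 16.2% of the 18193 genes tested and 32.7% together. Of these, 860 and 736 had a change of 2-fold or more. The arrays of both groups did not overlap for 49.4% of genes, and the median difference of all genes was 0.04. Counts of members in each list below are to be read against these shares. The direct difference CD4SP minus CD8SP, which shares the CD4SP arrays, tests whether the change from DP differed between the single-positive subsets. It was called for 12.7% of genes, with 7.78% higher and 4.91% lower in CD4SP. This smaller comparison was less stable: 1415 genes were higher and 893 lower, against 811 and 563 without CD4SP replicate 3, 536 lower without CD4SP replicate 2, 1547 higher and 1441 lower without CD8SP and DN replicates 1, and 126 higher and 167 lower after quantile normalization. Because RNA was measured in bulk, fewer cells expressing a gene and less RNA of it per cell cannot be told apart.

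The largest rises outside a list of known maturation and DP genes included those of a growth factor binding protein, interferon-stimulated genes and an integrin. Igfbp4, which binds insulin-like growth factors, lay at 6.60, 6.59 and 6.59 on the CD4SP arrays and at 0.02, -0.73 and 0.72 on the DP arrays, and rose by 6.59 ± 0.37 (adjusted p = 3.01e-07). The CD4SP arrays lay close together while the DP arrays spread widely. For each gene whose values are given array by array here and below, the 3 CD4SP arrays did not overlap the 3 DP arrays. The interferon-stimulated genes Ifit1 (6.20 ± 0.44), Ifi27l2a (6.17 ± 0.35), Ifit3 (5.86 ± 0.45) and Ifi213 (5.73 ± 0.32) rose. Itgb3, the beta 3 integrin chain that binds vitronectin and fibronectin, lay at 6.06, 6.13 and 6.18 on the CD4SP and at 0.32, -0.51 and 0.18 on the DP arrays, and rose by 6.12 ± 0.33 (adjusted p = 2.38e-07). It was also 2.82 ± 0.33 higher in CD4SP than in CD8SP (adjusted p = 0.000445), a call that quantile normalization ended (2.25, adjusted p = 0.0612). Tesc, a calcium-binding protein gene, rose (6.07 ± 0.24), as did Sfrp2 (6.06 ± 0.37), a secreted Wnt antagonist, with 6.85, 5.71 and 5.62 on the CD4SP arrays. Lfng, which adds N-acetylglucosamine to Notch receptors, rose by 5.88 ± 0.34 (adjusted p = 3.37e-07). Gpr18, a G-protein-coupled receptor of lymphocytes, rose by 5.76 ± 0.38 (adjusted p = 9.38e-07), the semaphorin gene Sema4a rose by 5.63 ± 0.31 (adjusted p = 2.76e-07), and Bcl3, an atypical IkappaB protein that acts with NF-kappaB p50 and p52, rose by 5.47 ± 0.32 (adjusted p = 3.99e-07).

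The largest falls held transporters, ion channels and signalling enzymes. Slc7a11, the cystine-glutamate antiporter subunit xCT, lay at -6.46, -6.68 and -6.93 on the CD4SP arrays and at -0.17, 0.05 and 0.12 on the DP arrays, and fell by 6.69 ± 0.18 (adjusted p = 2.04e-09). All CD4SP arrays lay far below all DP arrays. Slc6a19, a neutral amino acid transporter gene, fell by 5.85 ± 0.50 (adjusted p = 6.39e-06) and lay -3.63 ± 0.50 relative to CD8SP (adjusted p = 0.00115, and 0.111 after quantile normalization). The nicotinic acetylcholine receptor subunit Chrna9 fell by 6.03 ± 0.27 (adjusted p = 6.98e-08), and P2rx1, an ATP-gated channel, fell by 4.79 ± 0.35 (adjusted p = 1.91e-06). Rapgef3, the cyclic AMP-activated exchange factor Epac1, fell by 6.60 ± 0.16 (adjusted p = 7.2e-10). Nebl, a nebulin-family actin-binding protein gene, fell by 7.05 ± 0.15 (adjusted p = 3.21e-10), and Ldlrad3, a lipoprotein receptor family member, fell by 6.92 ± 0.11 (adjusted p = 1.87e-11). Dgkeos had the lowest difference of these (-7.42 ± 0.25). It is annotated on the opposite strand of Dgke, which encodes diacylglycerol kinase epsilon and also fell (-3.44 ± 0.10), and the values do not tell how far overlapping transcripts were kept apart. Nt5dc2 (-5.92 ± 0.12), Ccdc153 (-5.50 ± 0.89), Tdrd5 (-4.65 ± 0.28) and Medag (-4.64 ± 0.40) completed the 12 largest falls.

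**Figure D1:**
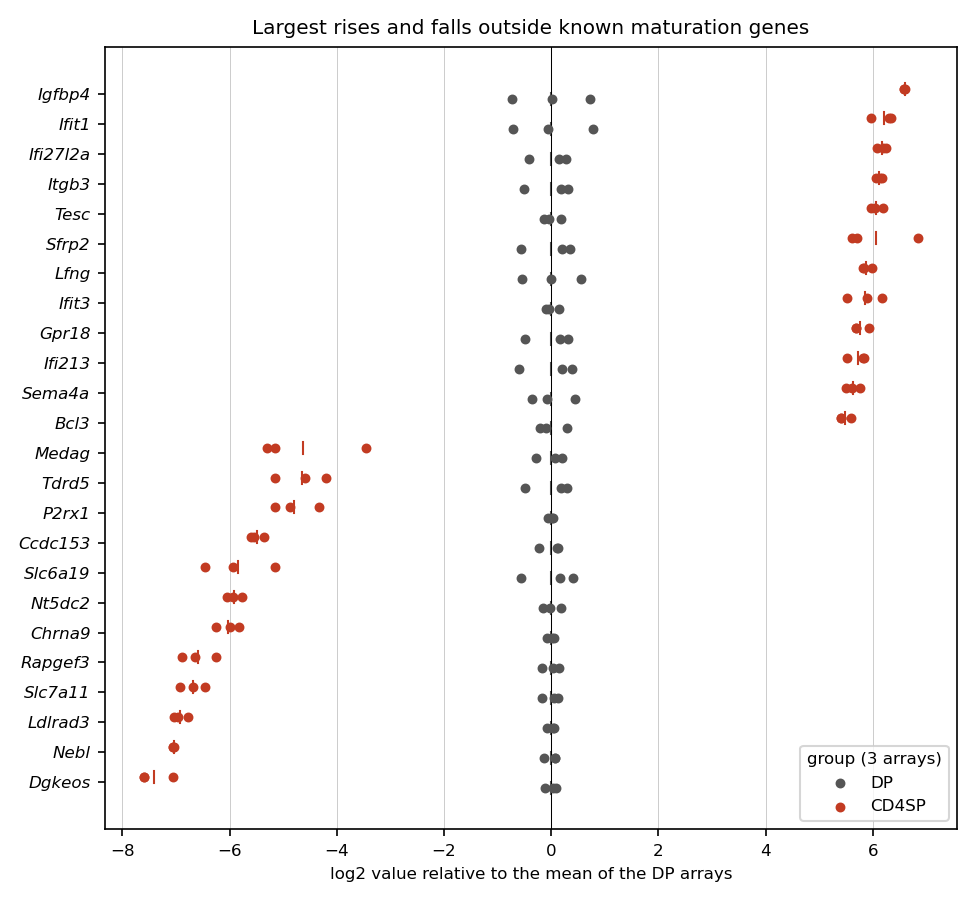
Values of the 12 largest rises and 12 largest falls on each CD4SP and DP array (horizontal axis, log2 relative to the DP mean), with vertical ticks at the group means. The groups do not overlap for any of these genes. Medag and Sfrp2 each have a CD4SP array more than 1 log2 unit from the other CD4SP arrays, while Igfbp4 (6.60, 6.59 and 6.59) and Nebl (-7.05, -7.05 and -7.04) have nearly the same value on all CD4SP arrays.

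Across 34 lists of pathway genes, the highest share of members lower in CD4SP was that of the mitosis list (94.1%), followed by the DNA replication list (71.0%). The highest share of members higher in CD4SP was that of nucleolar ribosome biogenesis factors (54.5%), followed by cytosolic ribosomal proteins (45.8%) and the NF-kappaB and TNF superfamily list (45.3%). These shares stood beside 16.4% higher and 16.2% lower among all genes.

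**Figure D2:**
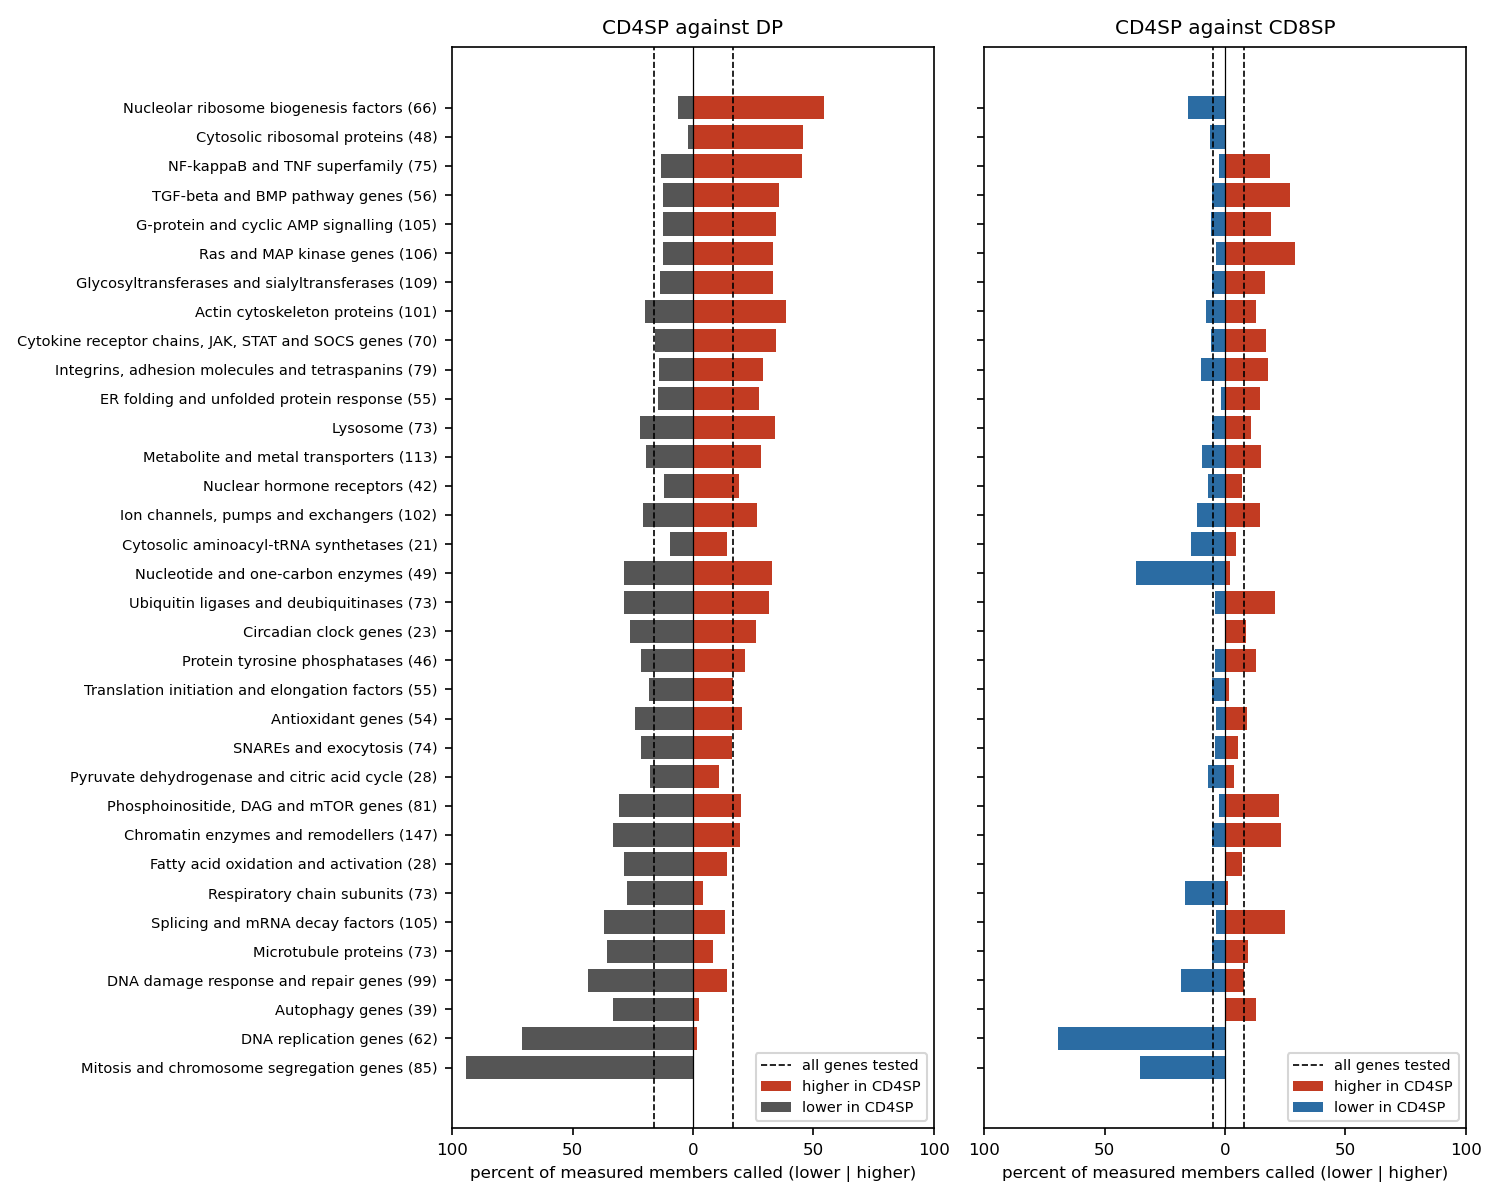
Percent of measured members of each pathway list called higher (to the right) or lower (to the left) in CD4SP, against DP in the left panel and against CD8SP in the right panel, with the number of measured members in parentheses and dashed lines at the shares among all genes. Mitosis and DNA replication genes are mostly lower against DP (80 of 85 and 44 of 62), and ribosome biogenesis factors are mostly higher (36 of 66).

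Genes of cell division were lower in CD4SP almost throughout. In the mitosis and chromosome segregation list 80 of 85 measured members fell and 0 rose, with a median of -1.69, beside 0.04 over all genes, and 67 fell at least 2-fold. The members that were not called were Kif14 (-0.03 ± 0.90), Kif15 (-0.07 ± 0.20), Pttg1 (-0.01 ± 0.11), Racgap1 (-0.84 ± 0.30) and Zw10 (-0.21 ± 0.15). Ube2c, the ubiquitin-conjugating enzyme of the anaphase-promoting complex, lay at -2.24, -3.06 and -3.01 on the CD4SP arrays and at 0.28, -0.17 and -0.12 on the DP arrays, and fell by 2.77 ± 0.26 (adjusted p = 1.16e-05). Cdc20, an activator of that complex, lay at -1.98, -2.88 and -2.79 on the CD4SP arrays and at 0.25, -0.18 and -0.07 on the DP arrays, and fell by 2.55 ± 0.23 (adjusted p = 9.76e-06). The B-type cyclin Ccnb2 (-2.51 ± 0.21) and the mitotic kinase gene Pbk (-2.45 ± 0.19) fell as well. Replicate 1 was the highest array of each group for Ube2c and Cdc20. The same held for the list median, which was -1.36, -1.92 and -1.85 on the CD4SP arrays and 0.25, -0.15 and -0.09 on the DP arrays. By this median, replicate 1 was also the highest of the DN arrays (0.10, -0.28 and -0.35) and of the CD8SP arrays (-0.90, -1.07 and -1.22).

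The DNA replication list followed with smaller differences. Of its 62 measured members 44 fell and 1 rose, with a median of -0.71. Uhrf1, which recruits the maintenance DNA methyltransferase to replicated DNA, lay at -2.29, -2.79 and -2.82 on the CD4SP arrays and at 0.27, -0.15 and -0.13 on the DP arrays, and fell by 2.64 ± 0.15 (adjusted p = 3.25e-07). The origin licensing factor Cdc6 (-1.46 ± 0.13), the licensing inhibitor geminin, Gmnn (-1.51 ± 0.12), and the helicase cofactor Gins1 (-1.65 ± 0.15) fell. The polymerase delta subunit Pold4 was the member that rose (0.66 ± 0.15). In CD4SP minus CD8SP 43 replication genes were lower and 0 higher (44 and 0 without CD8SP and DN replicates 1), and for mitosis genes the counts were 30 and 0 (24 and 0 without those arrays). Uhrf1 was lower than in CD8SP by that test (-1.18 ± 0.15, adjusted p = 0.000709), a call that quantile normalization ended (adjusted p = 0.0951).

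Promoter sequences of these lists are shown because members with mitotic roles moved together. Promoters of cell cycle genes are known for CCAAT boxes, for the cell cycle homology region with the core TTTGAA, and, in replication genes, for E2F sites such as TTCCCGC. In the RefSeq promoter table of build GRCm38.p6, 14452 of the genes tested had a promoter, 18109 promoters in all, among them 79 promoters of 72 of the 85 mitosis genes. The 250 bases before the start were searched on both strands for these letters, and matches were allowed to overlap. CCAAT was found in 63.3% of mitosis promoters and 34.7% of all promoters, TTTGAA in 36.7% and 11.9%, and both in 26.6% and 4.25%. Of 64 promoters of 51 replication genes, 50% held CCAAT, 23.4% TTCCCGC and 12.5% TTTGAA, beside 34.7%, 5.56% and 11.9% of all promoters. A raised share of CCAAT was thus seen in both lists. TTCCCGC was found in 7.59% of mitosis promoters. A match is a description of the letters and not a bound site. For the choice of sequences to show, genes whose arrays overlapped and promoters on a single chromosome were left out. Among the others, the 4 called mitosis genes with the largest falls whose window holds both CCAAT and TTTGAA (in capitals, on either strand) were taken. So were the 2 called replication genes with the largest falls whose window holds TTCCCGC (in capitals, while CCAAT is not marked in these 2). The sequences below are these windows, the 150 bases before the start. They lie at chr2:164769779-164769928, plus strand (Ube2c), chr4:118437344-118437493, minus strand (Cdc20), chr7:80294326-80294475, plus strand (Prc1), chr19:37376232-37376381, plus strand (Kif11), chr17:56303187-56303336, plus strand (Uhrf1) and chr11:98908001-98908150, plus strand (Cdc6), and each is written 5′ to 3′ in the direction of its gene.
Ube2c: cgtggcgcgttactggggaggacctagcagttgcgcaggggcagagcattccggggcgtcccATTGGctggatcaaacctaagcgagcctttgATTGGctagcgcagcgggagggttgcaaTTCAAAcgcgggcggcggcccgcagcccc
Cdc20: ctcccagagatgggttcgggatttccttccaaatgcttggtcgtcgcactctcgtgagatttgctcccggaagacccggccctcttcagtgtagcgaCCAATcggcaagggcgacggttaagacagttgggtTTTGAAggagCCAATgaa
Prc1: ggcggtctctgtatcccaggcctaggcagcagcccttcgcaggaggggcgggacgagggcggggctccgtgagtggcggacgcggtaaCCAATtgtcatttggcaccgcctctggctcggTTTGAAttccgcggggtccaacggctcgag
Kif11: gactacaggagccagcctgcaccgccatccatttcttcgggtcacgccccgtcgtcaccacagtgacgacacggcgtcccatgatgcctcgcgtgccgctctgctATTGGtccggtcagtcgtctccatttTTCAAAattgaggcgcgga
Uhrf1: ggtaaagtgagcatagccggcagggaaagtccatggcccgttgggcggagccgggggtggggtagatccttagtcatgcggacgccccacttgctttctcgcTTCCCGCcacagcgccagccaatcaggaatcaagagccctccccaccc
Cdc6: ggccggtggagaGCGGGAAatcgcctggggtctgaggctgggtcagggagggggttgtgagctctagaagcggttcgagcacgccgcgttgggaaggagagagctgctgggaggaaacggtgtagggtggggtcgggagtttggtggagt

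In Cdc20 the TTTGAA match starts 18 bases before the start site and a CCAAT match 53 bases before it, and in Kif11 the matches lie on the opposite strand at 19 and 45 bases. Prc1, which bundles antiparallel microtubules in the central spindle, fell by 2.44 ± 0.29 (adjusted p = 6.45e-05), and Kif11, the kinesin that separates spindle poles, fell by 2.30 ± 0.21 (adjusted p = 9.83e-06).

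Nucleotide enzymes split by member. Of 49 measured genes for nucleotide synthesis, salvage and one-carbon metabolism 16 rose and 14 fell, with a median of -0.01. Samhd1, which hydrolyses deoxynucleotides, lay at 4.28, 4.49 and 4.54 on the CD4SP and 0.10, -0.28 and 0.18 on the DP arrays, and rose by 4.44 ± 0.24 (adjusted p = 2.47e-07). The salvage kinase Dck fell by 2.56 ± 0.08 (adjusted p = 5.83e-09), the ribonucleotide reductase subunit Rrm2 fell by 2.42 ± 0.15 (adjusted p = 5.85e-07), the adenosine deaminase gene Ada fell by 2.66 ± 0.13 (adjusted p = 1.24e-07), and Adssl1, an adenylosuccinate synthase, fell by 4.25 ± 0.36 (adjusted p = 6.32e-06). The ectoenzyme CD73, encoded by Nt5e, rose (1.48 ± 0.14), and its value was 0.72 when the median of its probe sets was taken. The purine salvage enzyme Aprt rose (1.27 ± 0.13). Against CD8SP 18 of these genes were lower and 1 higher in CD4SP, and 27 and 1 without CD8SP and DN replicates 1.

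DNA repair genes fell more often than they rose, with 43 of 99 lower, 14 higher and a median of -0.22. The count of rises was 9 without CD4SP replicate 2, 9 without DP replicate 1 and 8 without DP replicate 2. The end-joining ligase Lig4 fell by 2.93 ± 0.12 (adjusted p = 4.26e-08), and Xrcc6, which encodes the Ku70 end-binding protein, fell by 2.51 ± 0.11 (adjusted p = 5.98e-08). The histone variant H2ax (-1.95 ± 0.17) and the glycosylase Neil1 (-1.83 ± 0.20) fell. Parp3, an end-joining poly(ADP-ribose) polymerase, rose by 2.36 ± 0.15 (adjusted p = 6.41e-07), and the gap-filling polymerase Poll (1.31 ± 0.13) and the damage kinase Atm (0.98 ± 0.08) rose. Microtubule genes also fell more often than they rose (26 and 6 of 73, median -0.15). Among them were epsilon tubulin, Tube1 (-3.57 ± 0.15), and the beta tubulins Tubb2b (-3.05 ± 0.16) and Tubb2a (-1.98 ± 0.23), while the alpha tubulin Tuba4a rose (1.98 ± 0.11).

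Genes for making ribosomes rose more often than they fell in CD4SP. Ribosome biogenesis factors assemble ribosomal subunits in the nucleolus, and 36 of their 66 measured members rose and 4 fell, with a median of 0.38. The list median was 0.39, 0.38 and 0.42 on the CD4SP arrays and -0.03, 0.04 and -0.03 on the DP arrays, with no overlap. Rrp12, an export factor for both subunits, lay at 1.73, 1.25 and 1.77 on the CD4SP arrays and at 0.24, -0.32 and 0.08 on the DP arrays, and rose by 1.58 ± 0.17 (adjusted p = 3e-05). Tsr1, a factor of late small-subunit maturation, rose by 1.48 ± 0.11 (adjusted p = 1.91e-06), Polr1b, a core subunit of RNA polymerase I, rose by 1.28 ± 0.10 (adjusted p = 2.84e-06), and Rrp1b rose by 1.24 ± 0.07 (adjusted p = 3.45e-07). The members that fell were Wdr12 (-1.41 ± 0.13), which acts in large-subunit assembly, Nop9 (-0.33 ± 0.10), Rrp1 (-0.30 ± 0.10) and Emg1 (-0.29 ± 0.10), and leaving out any single array of the compared groups left 1 or 2 of them called. In CD4SP minus CD8SP 10 members were lower and 0 higher, and 26 and 0 without CD8SP and DN replicates 1. The E-box CACGTG, known from promoters of this class of genes, was found in 6.45% of 62 promoters of the list and in 7.38% of all promoters.

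Among the cytosolic ribosomal proteins themselves 22 of 48 measured members rose and 1 fell, with a median of 0.19. The differences were small, from -0.35 to 1.35. The largest rises were those of Rpl22l1 (1.35 ± 0.11), a paralog of Rpl22, Rps19 (1.06 ± 0.08), Rpl37 (0.94 ± 0.11) and Rps25 (0.87 ± 0.10). Rps27l, a p53-regulated paralog of Rps27, was the member that fell (-0.35 ± 0.11), and its call was lost without CD4SP replicate 2 (-0.30), CD4SP replicate 3 (-0.33), DP replicate 1 (-0.29) or DP replicate 2 (-0.32). Many pseudogenes and near-identical copies of ribosomal protein genes exist, and the rises numbered 12 when only probe sets of the type designed for a unique transcript (specific probe sets below) were used. Of 55 translation initiation and elongation factors 9 rose and 10 fell (median -0.04), shares close to those over all genes. Eef1b2, an elongation factor exchange subunit, rose by 0.93 ± 0.09 (adjusted p = 2.16e-05), the interferon-induced kinase Eif2ak2 rose by 1.0 ± 0.14 (adjusted p = 0.000287), and the cap-binding protein gene Eif4e3 fell by 1.22 ± 0.11 (adjusted p = 1.21e-05). Of 21 measured members of the aminoacyl-tRNA synthetase list 3 rose (Farsb, Aimp2 and Wars, by 0.52 ± 0.12, 0.36 ± 0.11 and 0.36 ± 0.09) and 2 fell (Tars -0.37 ± 0.10 and Gars -0.37 ± 0.09). These shares (14.3% and 9.52%) were below those over all genes, and Aimp2 is counted there although it does not encode a synthetase. The call of Aimp2 was lost without CD4SP replicates 1 (0.36) or 3 (0.31) or DP replicates 2 (0.36) or 3 (0.30), that of Wars without CD4SP replicate 3 (0.30), and that of Tars without CD4SP replicate 2 (-0.32) or DP replicates 2 (-0.31) or 3 (-0.35). Farsb lay at 0.16 with the median of its probe sets, where it was not called, and at 1.74 from specific probe sets alone, where it was called (adjusted p = 0.000782).

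**Figure D3:**
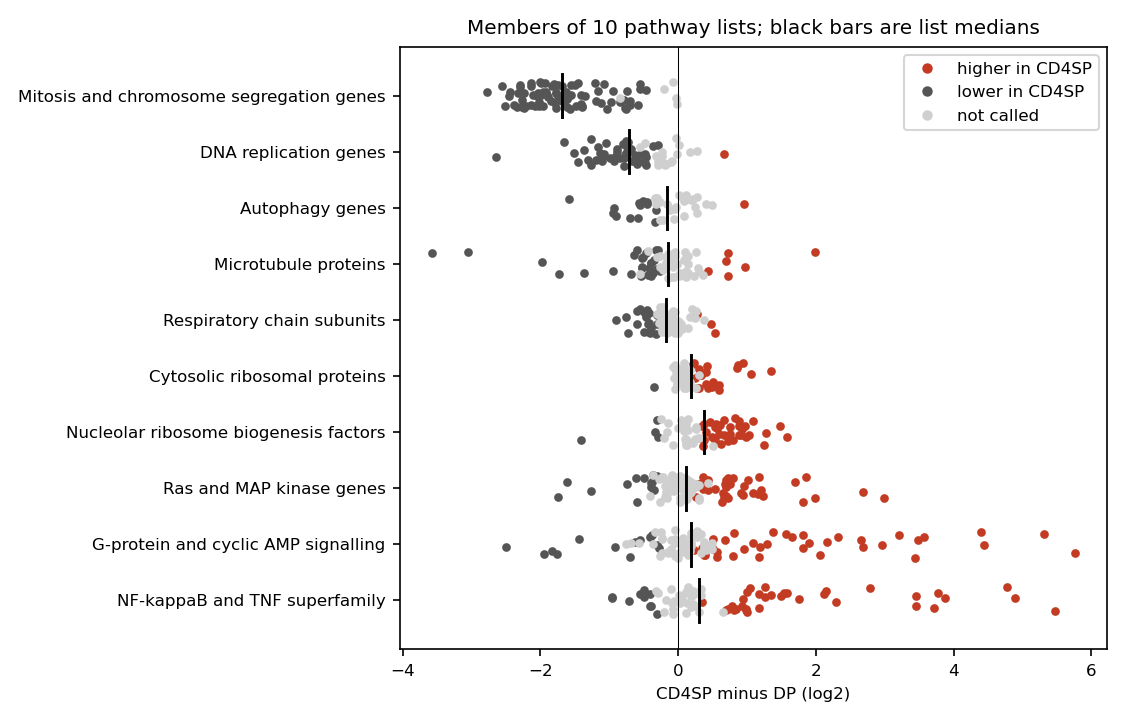
Difference CD4SP minus DP (horizontal axis, log2) of each measured member of 10 pathway lists, coloured by call, with a black bar at the list median. Mitosis genes lie to the left of 0 with a median of -1.69, ribosome biogenesis factors mostly to the right with a median of 0.38, and the NF-kappaB and signalling lists have tails of large rises up to 5.47 and 5.76.

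Respiratory chain genes fell more often than they rose, by small amounts, and most of them were not called. Of 73 measured subunits 20 fell and 3 rose, with a median of -0.18 and no difference as large as 2-fold. The count of falls was 13 without CD4SP replicate 2 and 12 without DP replicate 2. The complex I subunits Ndufs5 (-0.90 ± 0.14) and Ndufs4 (-0.60 ± 0.08) and the ATP synthase subunit Atp5h (-0.73 ± 0.08) fell, while Ndufa10 (0.48 ± 0.09) and the ATP synthase subunit Atp5e (0.53 ± 0.13) rose. The list median was -0.18, -0.22 and -0.10 on the CD4SP arrays, -0.01, 0.05 and -0.03 on the DP arrays and -0.15, 0.08 and 0.12 on the CD8SP arrays. Against CD8SP 12 subunits were lower in CD4SP and 1 higher, and 43 and 1 without CD8SP and DN replicates 1, the lowest CD8SP array in this list being replicate 1. In the citric acid cycle list 5 of 28 fell and 3 rose. These shares (17.9% and 10.7%) were no larger together (28.6%) than the 32.7% called over all genes. The mitochondrial isocitrate dehydrogenase Idh2 fell by 0.77 ± 0.10 (adjusted p = 9.46e-05), with -0.44 from specific probe sets alone, and the pyruvate dehydrogenase component Dlat fell by 0.53 ± 0.08 (adjusted p = 0.000285). The succinyl-CoA ligase subunits Suclg2 (0.76 ± 0.11) and Suclg1 (0.55 ± 0.12) rose. The falls in this list numbered 3 without CD4SP replicate 1, CD4SP replicate 2, DP replicate 2 or DP replicate 3.

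Fatty acid oxidation genes gave 4 rises and 8 falls among 28, and the falls numbered 5 without CD4SP replicate 2 or 3 and 4 without DP replicate 2 or 3. The mitochondrial enoyl-CoA isomerase Eci1 rose by 1.67 ± 0.19 (adjusted p = 5.51e-05) while its peroxisomal relative Eci2 fell by 1.03 ± 0.14 (adjusted p = 0.000159). Acsl5 rose (0.67 ± 0.09) and Acsl3 fell (-1.14 ± 0.10), both of which activate long-chain fatty acids. Antioxidant genes changed in both directions (11 rose and 13 fell of 54), and 7 rose without CD4SP replicate 3. Sesn3, a sestrin induced by FOXO factors, lay at 2.46, 2.59 and 2.71 on the CD4SP arrays and at 0.06, -0.01 and -0.05 on the DP arrays, and rose by 2.59 ± 0.15 (adjusted p = 3.72e-07). Gsto1, a glutathione transferase, rose by 1.63 ± 0.11 (adjusted p = 1.23e-06), and the thioredoxin gene Txn1 fell by 0.72 ± 0.08 (adjusted p = 5.77e-05), beside the fall of Slc7a11, whose product imports cystine for glutathione synthesis.

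Metabolite and metal transporters gave 32 rises and 22 falls among 113, with a median of 0.07. The glucose transporter Slc2a3 rose by 1.37 ± 0.18 (adjusted p = 0.000169), and the efflux pumps Abcc1 (1.54 ± 0.15) and Abcb1b (1.51 ± 0.14) rose. The lactate transporter Slc16a1 fell by 2.06 ± 0.16 (adjusted p = 2.91e-06), and Slc43a1, a carrier of large neutral amino acids, fell by 3.13 ± 0.14 (adjusted p = 6.68e-08). More transporters fell than rose at least 2-fold (12 and 5). Ion channel genes gave 27 rises and 21 falls among 102. The calcium channel of store-operated entry, Orai1, lay at 1.79, 1.79 and 1.84 on the CD4SP arrays and at -0.06, 0.02 and 0.04 on the DP arrays, and rose by 1.81 ± 0.12 (adjusted p = 1.04e-06). The ATP-gated channel P2rx7 rose (2.16 ± 0.23) while P2rx1 fell (-4.79 ± 0.35). The sodium pump subunit Atp1b3 (1.98 ± 0.11) and the GABA receptor subunit Gabrr2 (4.13 ± 0.25) rose, and the chloride channel genes Clic4 (-2.13 ± 0.08) and Clcn2 (-2.14 ± 0.48) fell.

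Autophagy genes fell more often than they rose, and most of them were not called. Of 39 measured members 13 fell and 1 rose, with a median of -0.16. The proteins that coat the autophagosome membrane were among them. Gabarapl1 lay at -1.69, -1.70 and -1.36 on the CD4SP arrays and at -0.22, 0.13 and 0.08 on the DP arrays, and fell by 1.58 ± 0.20 (adjusted p = 0.000118). Map1lc3a fell by 0.94 ± 0.12 (-0.52 from specific probe sets alone), Map1lc3b fell by 0.90 ± 0.13 (adjusted p = 0.000243), and their conjugation factor Atg12 fell by 0.93 ± 0.10 (adjusted p = 2.73e-05). Tecpr1, which acts in fusion with lysosomes, was the member that rose (0.96 ± 0.12), and 2 members rose without CD4SP replicate 2, DP replicate 1 or DP replicate 3. Against CD8SP 5 of these genes were higher and 0 lower in CD4SP, and 5 and 1 without CD8SP and DN replicates 1. Lysosomal genes gave 25 rises and 16 falls among 73, with a median of 0.11. Behind Ctss (7.13 ± 0.48), the lysosomal reductase Ifi30 (2.43 ± 0.20) and the endopeptidase Lgmn (2.41 ± 0.21) rose. The cysteine protease Ctsl, which processes the invariant chain in cortical epithelium, fell (-2.60 ± 0.15, and -1.27 from specific probe sets alone), as did the acid lipase Lipa (-1.24 ± 0.12) and prosaposin, Psap (-1.09 ± 0.13).

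Endoplasmic reticulum folding genes gave 15 rises and 8 falls among 55, with a median of 0.11. The chaperones Calr (1.02 ± 0.08) and Hyou1 (0.83 ± 0.09) and the membrane protein gene Wfs1 (2.07 ± 0.29) rose. Edem1, which sends misfolded glycoproteins to degradation, fell by 2.20 ± 0.08 (adjusted p = 2.72e-08), and the stress transcription factor Xbp1 fell by 1.0 ± 0.13 (adjusted p = 0.000108). SNARE and exocytosis genes gave 12 rises and 16 falls among 74, with a median of 0.02. These shares (16.2% and 21.6%) were near the 16.4% and 16.2% over all genes. The synaptotagmin-like gene Sytl2 rose by 3.38 ± 0.25 (adjusted p = 1.95e-06) and was 2.66 ± 0.25 higher than in CD8SP (adjusted p = 0.000104), while Syt13 (-4.04 ± 0.21) and Vamp1 (-2.08 ± 0.09) fell. Glycosyltransferase genes rose in 36 and fell in 15 of 109 cases, with a median of 0.18. The sialyltransferase St3gal1, which caps O-glycans on CD8 and CD43, lay at 2.90, 2.54 and 2.65 on the CD4SP arrays and at -0.14, -0.08 and 0.22 on the DP arrays, and rose by 2.70 ± 0.15 (adjusted p = 2.36e-07). St8sia6, which adds alpha 2,8-linked sialic acid, rose by 3.57 ± 0.16 (adjusted p = 5.81e-08) and was 2.84 ± 0.16 higher than in CD8SP (adjusted p = 3.53e-06). Galnt6, which starts O-glycans, rose (3.27 ± 0.10), and C1galt1, which extends them, fell (-1.60 ± 0.07).

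Genes of NF-kappaB and of the TNF superfamily rose more often than they fell in CD4SP. NF-kappaB subunits of the canonical and alternative pathways, and receptors such as OX40, GITR and the ligand RANKL, are known from contacts of CD4SP cells with the medullary epithelium. Of 75 measured members 34 rose and 10 fell, with a median of 0.30, and 22 rose and 0 fell at least 2-fold. The count of falls was 5 without CD4SP replicate 2 and 6 without DP replicate 3. Among the ligands, Tnfsf11, which encodes RANKL, lay at 4.73, 4.75 and 4.81 on the CD4SP arrays and at -0.02, -0.08 and 0.09 on the DP arrays, and rose by 4.77 ± 0.33 (adjusted p = 1.37e-06). Among the receptors, Tnfrsf4, which encodes OX40, lay at 3.78, 3.53 and 3.83 on the CD4SP arrays and at 0.0, -0.21 and 0.21 on the DP arrays, and rose by 3.71 ± 0.12 (adjusted p = 7.13e-09). Tnfrsf18, which encodes GITR, rose by 2.15 ± 0.22 (adjusted p = 2.43e-05). The alternative subunit Relb rose by 3.87 ± 0.37 (adjusted p = 1.27e-05), and Bcl3 lay at 5.41, 5.41 and 5.60 on the CD4SP and at -0.20, -0.09 and 0.30 on the DP arrays. Card6, a CARD-domain protein gene, rose by 4.89 ± 0.30 (adjusted p = 5.73e-07). The inhibitors Tnfaip3 (-0.96 ± 0.12), which encodes A20, and Nfkbie (-0.72 ± 0.15) fell, as did the death receptor Fas (-0.96 ± 0.13). Cd27 fell (-0.50 ± 0.16), a call that was lost when any compared array other than DP replicate 1 was left out, with values from -0.52 to -0.44. The difference from CD8SP was called for Tnfrsf4 (3.30 ± 0.12, adjusted p = 2.06e-07) and Tnfsf11 (1.88 ± 0.33, adjusted p = 0.00424) and not for Relb (0.06 ± 0.37, adjusted p = 0.937) or Bcl3 (0.33 ± 0.32, adjusted p = 0.565). OX40 and GITR also mark regulatory T cells, and the values of that list are given with the markers.

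**Figure D4:**
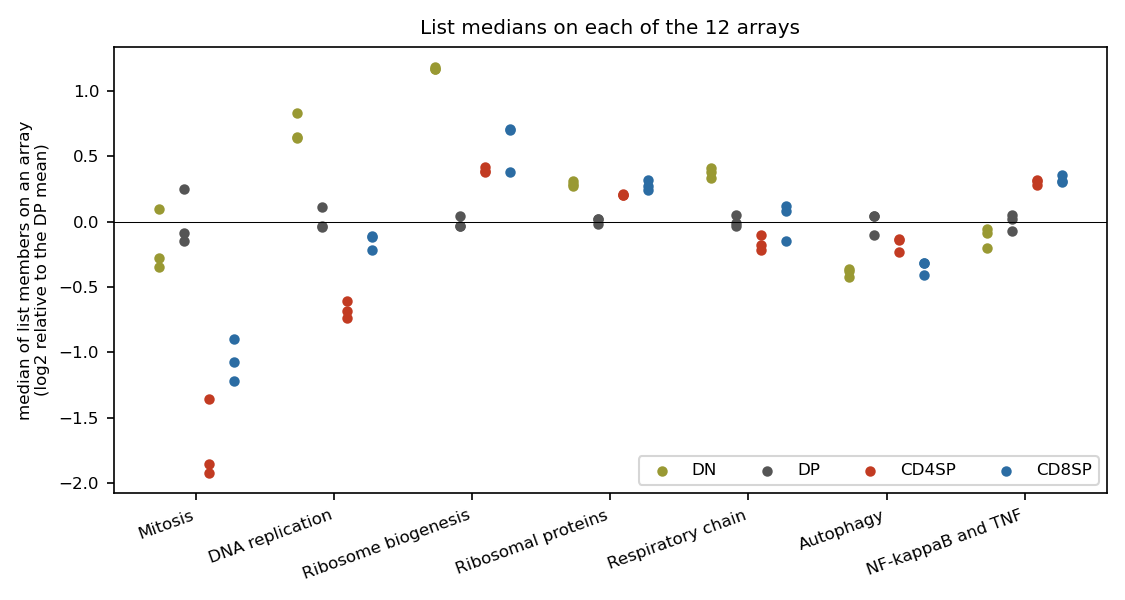
Median of the members of 7 pathway lists on each of the 12 arrays (vertical axis, log2 relative to the DP mean), coloured by group. For mitosis genes the CD4SP arrays lie at -1.36, -1.92 and -1.85 and the CD8SP arrays at -0.90, -1.07 and -1.22, and for NF-kappaB and TNF genes all CD4SP and CD8SP arrays lie above all DP arrays.

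G-protein and cyclic AMP signalling genes rose in 36 and fell in 13 of 105 cases, with a median of 0.18, and 24 rose at least 2-fold. Ptgir, the prostacyclin receptor, lay at 5.21, 5.26 and 5.44 on the CD4SP arrays and at -0.18, -0.38 and 0.56 on the DP arrays, and rose by 5.31 ± 0.27 (adjusted p = 1.48e-07). It was 4.49 ± 0.27 higher than in CD8SP (adjusted p = 5.68e-06). Gpr18 lay at 5.68, 5.68 and 5.93 on the CD4SP arrays and at -0.49, 0.32 and 0.17 on the DP arrays, and its difference from CD8SP was not called (0.14 ± 0.38). Gpr83, known as a regulatory T cell gene, rose by 4.40 ± 0.17 (adjusted p = 2.47e-08), and Rgs1, which ends signals of G-protein alpha subunits, rose by 4.44 ± 0.50 (adjusted p = 4.71e-05). Pkig, an inhibitor of protein kinase A, fell by 2.50 ± 0.22 (adjusted p = 6.87e-06), the regulatory subunit Prkar2b fell by 1.94 ± 0.13 (adjusted p = 8.64e-07), and the cyclic GMP phosphodiesterase Pde5a fell by 1.83 ± 0.12 (adjusted p = 1.19e-06). In CD4SP minus CD8SP 20 members were higher and 6 lower, and 19 and 10 without CD8SP and DN replicates 1.

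Ras and MAP kinase genes gave 35 rises and 13 falls among 106, with a median of 0.12, and 31 members were higher and 4 lower than in CD8SP (30 and 7 without CD8SP and DN replicates 1). The Ras GTPase-activating protein Rasa3 lay at 2.96, 2.96 and 3.05 on the CD4SP arrays and at -0.16, 0.11 and 0.05 on the DP arrays, and rose by 2.99 ± 0.21 (adjusted p = 1.37e-06). The p38 beta kinase Mapk11 rose by 1.99 ± 0.11 (adjusted p = 2.36e-07) and was 1.44 ± 0.11 higher than in CD8SP (adjusted p = 2.36e-05). Its target kinase Mapkapk3 rose (2.68 ± 0.15), and so did the ERK phosphatase Dusp6 (1.86 ± 0.33). Dusp16, a phosphatase of JNK and p38, fell by 1.74 ± 0.25 (adjusted p = 0.000283), and the kinase Rps6ka5, which phosphorylates histone H3, fell by 1.62 ± 0.10 (adjusted p = 5.3e-07). Phosphoinositide, diacylglycerol and mTOR genes fell in 25 and rose in 16 of 81 cases, with a median of -0.01. Inpp4b, a phosphatase of phosphatidylinositol 3,4-bisphosphate, rose by 3.36 ± 0.16 (adjusted p = 7.67e-08), and the PI3-kinase catalytic subunit Pik3cd rose by 1.61 ± 0.12 (adjusted p = 2.29e-06). Dgke fell (-3.44 ± 0.10), as did the lipid kinase gene Pi4k2b (-1.14 ± 0.12). Against CD8SP 18 of these genes were higher and 2 lower, and 22 and 3 without CD8SP and DN replicates 1.

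TGF-beta and BMP pathway genes rose in 20 and fell in 7 of 56 cases, with a median of 0.27. After the inhibitory Smad7 (7.01 ± 0.36) followed the type I receptor Acvrl1 (2.85 ± 0.26, and 1.84 from specific probe sets alone) and the SMAD corepressor Skil (2.21 ± 0.14). Id2, an inhibitor of E proteins, rose (3.23 ± 0.42), but lay at 1.23 with an adjusted p of 0.0738 when only specific probe sets were used. Id1, its relative, fell by 1.09 ± 0.19 (adjusted p = 0.00125), and the ligand Bmp7 fell by 1.27 ± 0.15 (adjusted p = 5.48e-05). Bambi, a decoy receptor, fell (-0.96 ± 0.27). Its value was -0.60 without CD4SP replicate 1, and its call was lost without DP replicate 2 (-0.91).

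Cytokine receptor and JAK-STAT genes gave 24 rises and 11 falls among 70, with a median of 0.18. The interleukin-6 receptor chain Il6ra lay at 3.31, 3.42 and 3.63 on the CD4SP arrays and at 0.41, -0.26 and -0.15 on the DP arrays, and rose by 3.45 ± 0.19 (adjusted p = 2.88e-07), with 5.29 from specific probe sets alone. The receptor genes Il18r1 (3.44 ± 0.48) and Il2rb (3.06 ± 0.36) rose. The feedback inhibitor Cish rose by 2.93 ± 0.20 (adjusted p = 1.28e-06), whereas Socs1, which restrains cytokine signals in DP cells, fell by 1.18 ± 0.14 (adjusted p = 5.98e-05). Il12rb1 (-1.11 ± 0.14) and Il21r (-0.82 ± 0.12) fell. Of 46 measured members of the protein tyrosine phosphatase list 10 rose and 10 fell. The receptor-type Ptprf fell by 2.51 ± 0.10 (adjusted p = 2.47e-08) and was 1.16 ± 0.10 higher than in CD8SP (adjusted p = 4.35e-05). The cell cycle phosphatases Cdc25c (-2.56 ± 0.29) and Cdc25b (-1.20 ± 0.23) fell, and Ptpn18 (1.0 ± 0.13), Ptpn12 (0.85 ± 0.10) and Ptpn6 (0.75 ± 0.09), which encodes SHP-1, rose. Hacd1 (-1.87 ± 0.16) is listed under an old name and counted among the 46 members and 10 falls, but encodes a fatty acid elongation enzyme and not a phosphatase.

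Ubiquitin ligases and deubiquitinases of lymphocyte signalling changed in both directions, with 23 rises and 21 falls among 73, but 17 rises and 3 falls of at least 2-fold. The interferon-induced ISG15 protease Usp18 rose by 3.24 ± 0.21 (adjusted p = 8.86e-07), and the receptor signalling inhibitor Ubash3b rose by 2.36 ± 0.19 (adjusted p = 4.68e-06). Rnf43, a ligase that removes Wnt receptors, rose by 2.55 ± 0.60 (adjusted p = 0.00715). Cbl, which ubiquitinates the activated T cell receptor complex, lay at -1.84, -2.08 and -1.96 on the CD4SP arrays and at -0.15, 0.02 and 0.12 on the DP arrays, and fell by 1.96 ± 0.09 (adjusted p = 7.47e-08). Skp2, which targets the cell cycle inhibitor p27, fell by 1.63 ± 0.17 (adjusted p = 3e-05), and Nedd4 fell by 1.43 ± 0.08 (adjusted p = 3.45e-07).

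Actin cytoskeleton genes gave 39 rises and 20 falls among 101, with a median of 0.18. Capg, which caps filament ends, rose by 4.07 ± 0.34 (adjusted p = 5.93e-06), and Evl, an Ena/VASP protein, lay at 3.0, 2.98 and 2.92 on the CD4SP arrays and at -0.02, -0.02 and 0.03 on the DP arrays, and rose by 2.97 ± 0.14 (adjusted p = 7.67e-08). The motor Myo6 rose by 3.43 ± 0.34 (adjusted p = 1.72e-05) and was 3.46 ± 0.34 higher than in CD8SP (adjusted p = 0.000126). The formin Fmnl2 fell by 3.08 ± 0.10 (adjusted p = 7.03e-09), and the membrane-linked substrates Marcks (-2.16 ± 0.12) and Marcksl1 (-1.74 ± 0.07) fell.

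Adhesion genes rose in 23 and fell in 11 of 79 cases, and 17 rose and 4 fell at least 2-fold. The falls numbered 7 without CD4SP replicate 3 or without DP replicate 2. The tetraspanins Cd53 (4.18 ± 0.29) and Cd9 (3.89 ± 0.29) rose, while Tspan2 (-3.09 ± 0.17) and Tspan3 (-1.19 ± 0.13) fell, so that members of this family went in both directions. Amigo2, a homophilic adhesion protein gene, rose by 3.91 ± 0.36 (adjusted p = 9.84e-06), and Mcam, which encodes CD146, fell by 2.87 ± 0.17 (adjusted p = 4.64e-07). Mcam was also lower than in CD8SP (-1.41 ± 0.17, adjusted p = 0.000547).

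Genes for chromatin and RNA processing fell more often than they rose against DP. Of 147 measured chromatin enzymes and remodellers 49 fell and 29 rose, with a median of -0.16, whereas 34 were higher and 8 lower than in CD8SP (32 and 9 without CD8SP and DN replicates 1). The remodellers Chd7 and Chd3 rose. Chd7 lay at 4.34, 4.49 and 4.54 on the CD4SP arrays and at 0.32, -0.30 and -0.02 on the DP arrays, and rose by 4.46 ± 0.39 (adjusted p = 7.45e-06), and Chd3 rose by 2.71 ± 0.11 (adjusted p = 3.75e-08). Arid5a rose (1.67 ± 0.18), and Arid5b rose by 1.67 ± 0.11, and lay at 2.52 with the median of its probe sets. Padi4, which converts histone arginines to citrulline, fell by 3.32 ± 0.15 (adjusted p = 7.46e-08), the class IIa deacetylase Hdac7, a known regulator of thymocyte survival, fell by 1.77 ± 0.09 (adjusted p = 1.33e-07), and the high mobility group genes Hmgb2 (-1.97 ± 0.10), high in cycling cells, and Hmgb3 (-2.09 ± 0.11) fell. In the splicing and messenger RNA decay list 39 of 105 fell and 14 rose, with a median of -0.14, and 26 were higher and 4 lower than in CD8SP (25 and 6 without those arrays). The kinase Clk3, which phosphorylates SR proteins, fell by 2.10 ± 0.08 (adjusted p = 2.72e-08), and the deadenylase subunit Cnot8 fell by 1.23 ± 0.10 (adjusted p = 3.73e-06). The SR protein kinase Srpk1 rose by 1.42 ± 0.07 (adjusted p = 1.55e-07), and the RNA decay factors Zc3h12d (2.45 ± 0.31) and Zfp36l1 (1.58 ± 0.17) rose.

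Nuclear hormone receptors gave 8 rises and 5 falls among 42, close to the shares over all genes. Pparg, the lipid-sensing receptor, rose by 2.42 ± 0.19 (adjusted p = 3.94e-06), and Nr4a3, a gene induced by receptor signals, rose by 1.60 ± 0.13 (adjusted p = 3.37e-06), with 0.77 from the median of its probe sets. The glucocorticoid receptor Nr3c1 fell by 0.62 ± 0.12 (adjusted p = 0.00206). Clock genes gave 6 rises and 6 falls among 23. The activator Arntl, which encodes BMAL1, lay at -1.60, -1.71 and -1.63 on the CD4SP arrays and at -0.03, -0.04 and 0.07 on the DP arrays, and fell by 1.65 ± 0.08 (adjusted p = 1.55e-07). Its repressor Nr1d2 fell by 1.49 ± 0.19 (adjusted p = 0.000122), while the clock repressor Per1 rose by 0.76 ± 0.12 (adjusted p = 0.000438) and the output factor Dbp rose by 0.85 ± 0.18 (adjusted p = 0.0036). Per2 rose (0.95 ± 0.16), but lay at 0.30 with the median of its probe sets, where it was not called. No source used here gives the time of day of the sorts.

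Markers of other cells were set beside these results, and their part in them was not tested. Of 8 measured B cell markers 0 rose and 1 fell (Cd79b, -4.55 ± 0.44), while Cd79a lay at -0.07 ± 0.54 and Ms4a1 at 0.41 ± 0.52. With only the 6 compared arrays Ms4a1 (adjusted p = 0.0431) and Pax5 (0.31 ± 0.11, adjusted p = 0.0341) were called higher as well. Both were also called without DN and CD8SP replicates 1. Of 18 myeloid and dendritic cell markers 4 rose and 0 fell. Those that rose were Fcgr3 (2.41 ± 0.43), Cd74 (1.64 ± 0.44), Fcer1g (0.53 ± 0.18) and Adgre1 (0.37 ± 0.11). The call of Fcer1g was lost when any compared array was left out (0.42 to 0.62), and that of Adgre1 without CD4SP replicates 2 (0.33) or 3 (0.36) or DP replicates 1 (0.35) or 2 (0.30). Lyz2 (0.53 ± 0.47), H2-Aa (0.62 ± 0.57), Itgax (0.41 ± 0.16), Csf1r (0.17 ± 0.12) and Itgam (-0.36 ± 0.24) were not called. With only the 6 compared arrays 7 myeloid markers rose and 1 fell, since Lyz2 (adjusted p = 0.00772), H2-Aa (0.00486) and Itgax (0.0436) were then called higher and Itgam (0.0318) lower. H2-Aa and Itgax were also called without DN and CD8SP replicates 1. The myeloid list median ranged over 0.33, 0.38 and 0.38 on the CD4SP arrays and -0.04, -0.13 and 0.12 on the DP arrays. The lysosomal genes Ctss, Ifi30 and Lgmn are also strongly expressed in myeloid cells. Of 7 NK and innate markers 0 rose and 1 fell (Gzma, -4.13 ± 0.34). Eomes, also a CD8SP marker, rose with only the 6 compared arrays and in other settings given with the CD8SP markers. For the other lists, 1 of 4 gamma delta T cell markers rose (Cd163l1, 1.84 ± 0.23), 1 of 4 erythroid markers (Hba-a1, 0.36 ± 0.09) and 2 of 12 stromal markers (Krt14, 0.39 ± 0.12, and Pdgfra, 0.29 ± 0.10). The call of Cd163l1 was lost from specific probe sets alone (0.19) and after quantile normalization (1.36). The call of Krt14 was lost without CD4SP replicates 2 (0.34) or 3 (0.31) or DP replicates 1 (0.33) or 2 (0.38), with only the 6 compared arrays (0.39), with the median of probe sets (0.45) and from specific probe sets alone, where it lay at 0.19. That of Pdgfra was lost without CD4SP replicates 1 (0.33), 2 (0.27) or 3 (0.26) or DP replicates 2 (0.24) or 3 (0.27).

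Regulatory T cells are part of the CD4SP gate, and 5 of 8 of their markers rose and 1 fell, with list medians of 1.44, 1.29 and 1.37 on the CD4SP arrays and -0.04, 0.0 and 0.08 on the DP arrays. Ctla4 rose by 2.06 ± 0.21 (adjusted p = 2.2e-05), beside Tnfrsf4, Tnfrsf18 and Gpr83. The lineage factor Foxp3 rose (0.49 ± 0.16) with an adjusted p of 0.0351. Its call was lost without CD4SP replicate 1 (0.53), 2 (0.54) or 3 (0.40) and without DP replicate 2 (0.47) or 3 (0.33). The Foxp3 call was also lost without DN and CD8SP replicates 1 (adjusted p = 0.0546), after quantile normalization (0.509) and with only the 6 compared arrays (0.0765). With those 6 arrays Il2ra (0.66 ± 0.29) was called higher (adjusted p = 0.0131). Ikzf2 was not called (0.24), but was called with the median of its probe sets (0.43, adjusted p = 0.0344). Nrp1 fell by 1.81 ± 0.14 (adjusted p = 2.7e-06). How much of the rises of Tnfrsf4, Tnfrsf18 and Gpr83 came from regulatory T cells was not tested. Of 6 NKT cell markers 3 rose (Il2rb 3.06 ± 0.36, Zbtb16 2.50 ± 0.18 and Cxcr6 2.19 ± 0.56) and 1 fell (Slamf6, -1.26 ± 0.08), and Zbtb16 lay at 0.47 from specific probe sets alone and at 0.79 with the median of its probe sets. The CD8SP markers Cst7 (1.70 ± 0.35), Itgae (1.67 ± 0.40), Nkg7 (1.45 ± 0.39) and Runx3 (1.13 ± 0.12) rose among 8, and Eomes was not called (1.44 ± 0.63, and called at an adjusted p of 0.046 with only the 6 compared arrays, which also called Xcl1, 0.28 ± 0.22), but all 8 were lower than in CD8SP. Eomes was also called higher than in DP with a replicate block (adjusted p = 0.0229) and without DN and CD8SP replicates 1 (0.0211). The same held with array weights (0.0261) and without CD4SP replicate 1 (0.0421). The Nkg7 call was lost without CD4SP replicate 1 (1.32) or DP replicate 2 (1.27). Of 7 progenitor markers 3 rose (Dtx1 2.17 ± 0.18, Cd44 1.77 ± 0.26 and Kit 0.58 ± 0.19) and 1 fell (Ptcra, -3.46 ± 0.14). Dtx1 lay at 1.16 from specific probe sets alone, and with only the 6 compared arrays Il2ra and Hhex (0.44 ± 0.19) were called higher as well. Il2ra and Hhex were also called without DN and CD8SP replicates 1 and with array weights. The call of Kit was lost when any compared array was left out, with values from 0.53 to 0.61. Among 14 dissociation and heat shock genes 5 rose, led by Ier2 (2.21 ± 0.16) and Egr1 (1.80 ± 0.19), and 1 fell (Jun, -1.44 ± 0.32). Dnajb1 (-0.66 ± 0.24) was called lower as well with only the 6 compared arrays (adjusted p = 0.0444). It was also called lower with a replicate block (0.000534), without DN and CD8SP replicates 1 (0.0185), with array weights (0.02) and without CD4SP replicate 1 (0.0274). The median of this list was 1.13, 0.07 and 0.18 on the CD4SP arrays and -0.05, -0.03 and 0.04 on the DP arrays. CD4SP replicate 1 was thus the highest of its group in this list and in the mitosis list, and 80 mitosis genes were lower with it and 81 without it.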

How the data were processed

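RNA of sorted DN, DP, CD4SP and CD8SP thymocytes had been hybridised to Affymetrix arrays, 3 per group, and the sample titles give the groups. The authors deposited log values for 45101 probe sets, read here as log2 because no source used here gives the base. Per the submitters' processing notes MAS5 was used, in a role and version they do not state. Each probe set had been centred on the mean of the DP arrays (largest absolute DP mean 1.27e-06), so levels, signal over background and any filter on dim probe sets are lost. The chip's version is named inconsistently in the design text.

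Of the probe sets 34958 had 1 symbol in the platform annotation, 932 several and 9211 none, and 64 controls were left out. The mean over 34945 probe sets gave 18193 genes, of which 9183 had 1 probe set, and for 89 genes single probe sets were called both ways. Of the probe sets used, 34741 had a gene ID in the RefSeq table of GRCm38.p6, and 0 symbols were updated.

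A limma fit (version 3.58.1, under R 4.3.3) took all 12 arrays with a mean per group, followed by eBayes without a trend. P-values are two-sided with Benjamini-Hochberg adjustment over all genes, with 0.05 as the threshold for a call. The fit was tested on simulated data. The simulated noise was independent between arrays, so this test cannot speak to spread that same-numbered arrays share. The 34 pathway lists (2385 genes, 30 of them in more than 1 list) and 12 marker lists are described by counts and medians, with no set test. 1 further list is not reported here. The members and lists were chosen with earlier results of these data known.

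Genes were named by rule. Beside the sort genes (Cd4, Cd8a, Cd8b1) and marker list members, the rule takes 12 rises and 12 falls, the largest of those called without overlap between arrays and outside 93 known maturation and DP genes and clone identifiers, and up to 4 such rises and falls per list. The mitosis genes that were not called, and Prc1 and Kif11, were named after their values were seen. Promoters were searched in the 250 bases before each start. Alternatives were each compared array left out, only the 6 arrays compared, a replicate block, DN and CD8SP replicates 1 left out, array weights, quantile normalization, specific probe sets only, the median of probe sets and, chosen after seeing the data, array medians set to 0. Same-numbered CD4SP and DP arrays correlated in their residuals by 0.11, 0.03 and 0.08, and differently numbered ones by -0.10 to 0.04. Over all pairs of groups the ranges were -0.03 to 0.16 and -0.16 to 0.08. The residuals of a group sum to 0 for each gene, so these correlations are not independent of one another. The numbers were not taken to pair samples, and the main fit holds no term for them. Whether same-numbered arrays share a source is not in the labels and was not tested.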

Additional observations from a re-analysis of the deposited data

Results flagged for a closer look

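The difference CD4SP minus CD8SP was called, and was at least 2-fold, for 40 of the genes named above that also differed from DP, so their change from DP differed between the single-positive subsets by a direct test. The values are log2 differences. Beside the sort genes Cd8a (-6.20) and Cd8b1 (-4.83) and the CD8SP markers Itgae (-5.93), Nkg7 (-6.08) and Cst7 (-3.49), genes of receptors, a ligand and regulatory T cells differed, namely Tnfrsf4 (3.30), Tnfsf11 (1.88), Tnfrsf18 (1.12), Ctla4 (1.35), Gpr83 (1.01), Nrp1 (1.82) and Acvrl1 (1.05). Among 6 NKT cell markers Zbtb16 was higher than in CD8SP (1.96) and 4 were lower, with Cxcr6 (-3.27) and Il2rb (-1.29) among the lower ones. Against DP, Zbtb16 lay at 0.47 from specific probe sets alone. Signalling genes higher in CD4SP were Ptgir (4.49), Mapk11 (1.44), P2rx7 (1.30) and Ptprf (1.16), and genes of the cytoskeleton, adhesion, secretion and glycosylation were Myo6 (3.46), Itgb3 (2.82), Sytl2 (2.66) and St8sia6 (2.84). Lgmn (1.77), Clcn2 (1.68), Chd3 (1.03), Padi4 (1.02) and Tecpr1 (1.01) were higher in CD4SP as well. The cell cycle genes Uhrf1 (-1.18), Cdc6 (-1.08), Ccnb2 (-1.02), Gins1 (-1.02) and Gmnn (-1.02) were lower in CD4SP than in CD8SP, and so were Cd79b (-4.22), Nt5dc2 (-3.80), Slc6a19 (-3.63), Cxcr6 (-3.27), Hacd1 (-2.23), Adssl1 (-1.58), Mcam (-1.41), Il2rb (-1.29) and Gzma (-1.17). Without CD8SP and DN replicates 1, which had the lowest array weights, 37 of the 40 were called in the same direction, and 25 after quantile normalization. The calls that quantile normalization ended were those of Itgb3 (2.25), Slc6a19 (-2.58), Uhrf1 (-1.08), Ccnb2 (-0.96), Gins1 (-0.90), Lgmn (1.34), P2rx7 (0.98), Cst7 (-2.77), Tnfrsf18 (0.85), Ctla4 (1.05), Gpr83 (0.74), Acvrl1 (0.78), Clcn2 (1.07), Gzma (-0.96) and Il2rb (-1.0). The exceptions without those arrays were Acvrl1 (0.91), Clcn2 (1.89) and Gzma (-0.75). Without CD4SP replicate 1, 2 or 3 the number was 35, 35 and 37. Calls were lost for Acvrl1 (1.08, 1.07 and 1.0), Gzma (-1.34, -0.87 and -1.29) and Il2rb (-1.38, -1.23 and -1.28) without each of these arrays, and for Adssl1 (-1.51 and -1.20) and Clcn2 (1.26 and 1.48) without replicate 1 or 2.

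Signal also appeared in probe sets that have no gene symbol in the annotation used here and enter no comparison above. Of 9160 such probe sets 1414 were called in CD4SP against DP in a fit of their own, 783 higher and 631 lower, of which 300 and 229 differed at least 2-fold. Their differences ranged from -9.22 to 7.03.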

How the results depend on the processing

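Of the 5942 genes called against DP, 4713 to 5009 were called in the same direction with each compared array left out in turn, 5747 with a replicate block and 3113 after quantile normalization. With an array left out 2362 to 2623 genes were higher and 2434 to 2629 lower than in DP, and 811 to 1361 higher and 536 to 863 lower than in CD8SP. List counts that moved by over 1.5 times then ranged, for rises, over antioxidant genes 7 to 11, tRNA synthetases 1 to 3, autophagy 1 to 2 and DNA repair 8 to 11, and for falls over respiratory chain 12 to 17, citric acid cycle 3 to 5, fatty acid oxidation 4 to 7, ribosomal proteins 0 to 1, ribosome biogenesis 1 to 2, tRNA synthetases 1 to 2, adhesion 7 to 10 and NF-kappaB 5 to 8. Same-numbered arrays were not taken as pairs, and the replicate block called 3162 genes higher and 3130 lower, so that it did not move these counts by over 1.5 times. With the block the members called were, of rises autophagy 2 (from 1), and of falls ribosomal proteins 0 (from 1). With only the 6 compared arrays they were, of rises autophagy 2 (from 1), and of falls citric acid cycle 8 (from 5). Without DN and CD8SP replicates 1 they were, of rises autophagy 4 (from 1), and of falls citric acid cycle 9 (from 5), and 1441 genes were lower than in CD8SP. With array weights they were, of rises fatty acid oxidation 7 (from 4), translation factors 14 (from 9), tRNA synthetases 5 (from 3), autophagy 6 (from 1) and DNA replication 2 (from 1), and of falls respiratory chain 31 (from 20) and citric acid cycle 10 (from 5), and 1589 genes were lower than in CD8SP. With the median of probe sets they were, of rises DNA replication 2 (from 1). Specific probe sets alone cover 16591 genes and gave, of rises respiratory chain 1 (from 3), nucleotide enzymes 9 (from 16), ribosomal proteins 12 (from 22), translation factors 5 (from 9) and autophagy 2 (from 1), and of falls ribosomal proteins 0 (from 1), ribosome biogenesis 2 (from 4), TGF-beta 4 (from 7) and tyrosine phosphatases 5 (from 10).

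Quantile normalization made the largest change, with 1359 genes higher and 1755 lower than in DP and 126 higher and 167 lower than in CD8SP. The SD over probe sets was 0.22 to 0.23 on the DP arrays and 0.70 to 0.86 on the others, so that giving all arrays the same distribution widens DP by construction. The members called were then, of rises respiratory chain 1 (from 3), citric acid cycle 1 (from 3), fatty acid oxidation 2 (from 4), nucleotide enzymes 7 (from 16), antioxidant genes 5 (from 11), ribosomal proteins 8 (from 22), ribosome biogenesis 21 (from 36), translation factors 4 (from 9), tRNA synthetases 0 (from 3), endoplasmic reticulum folding 8 (from 15), lysosome 13 (from 25), exocytosis 6 (from 12), phosphoinositides 10 (from 16), cytokine receptors 14 (from 24), tyrosine phosphatases 4 (from 10), DNA repair 7 (from 14), chromatin 15 (from 29), splicing 9 (from 14), nuclear receptors 4 (from 8), ion channels 16 (from 27) and transporters 14 (from 32), and of falls respiratory chain 11 (from 20), citric acid cycle 3 (from 5), fatty acid oxidation 3 (from 8), antioxidant genes 6 (from 13), ribosomal proteins 0 (from 1), ribosome biogenesis 1 (from 4), tRNA synthetases 0 (from 2), autophagy 8 (from 13), microtubules 16 (from 26), adhesion 5 (from 11), G-protein signalling 7 (from 13), phosphoinositides 16 (from 25), MAP kinases 7 (from 13), NF-kappaB 6 (from 10), cytokine receptors 7 (from 11), tyrosine phosphatases 6 (from 10), DNA repair 28 (from 43), splicing 21 (from 39) and nuclear receptors 2 (from 5). Among genes named above it alone of these settings ended the calls against DP of Atp5e (0.51), Cd44 (1.31), Cdc25b (-0.98), Cst7 (1.28), Fcgr3 (1.83), Gars (-0.36), Hba-a1 (0.31), Jun (-1.37), Nr3c1 (-0.53), Rnf43 (1.97), Suclg1 (0.47) and Suclg2 (0.70). With array medians set to 0, an alternative added after seeing the data, 2800 genes were higher and 3042 lower, and the list counts stayed within 1.5 times. The values carry no signal over background, so limits by dim probe sets could not be assessed.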
